A study of Mus musculus with 6 samples.

Results

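The tubulin isotypes described here are 4 alpha tubulin genes (Tuba1a, Tuba1b, Tuba1c and Tuba4a) and 6 beta tubulin genes (Tubb2a, Tubb2b, Tubb3, Tubb4a, Tubb5 and Tubb6). They were chosen by name, and all 10 were found among the 17607 genes of the deposited table. Their RNA was measured by RNA sequencing in auditory nerves of the inbred mouse strain CBA/CaJ, taken by microdissection from 3 old mice (2.5 years) and 3 young adult mice (2 months). Both cochleas of an animal were pooled into 1 library, which makes each replicate a different mouse, and the labels name no genotype or treatment beyond strain and age. The libraries held 34587979 to 40841478 recovered reads. Levels are normalised read counts, which are reads divided by 1 size factor per library, and means are given ± SD with n = 3 per group.

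Microtubules are hollow polymers of paired alpha and beta tubulin, and they form the tracks of axonal transport in the long processes of neurons. Mammals make each partner from several genes whose proteins are nearly alike in the folded body and differ most in a short acidic tail at the end of the chain. That tail is where enzymes add or remove tyrosine and chains of glutamate. In the auditory nerve the candidate sources of tubulin RNA are the spiral ganglion neurons, their Schwann cells and satellite glia, and the connective and vascular cells around them. Tuba1a, Tubb2a, Tubb2b, Tubb3 and Tubb4a are enriched in nervous tissue and are called neural isotypes below. Tuba1b, Tuba1c, Tubb5 and Tubb6 are made by many cell types and are called general isotypes. Tuba4a was kept apart.

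The ends of the coding regions are shown because the isotypes differ there and because they show how far reads can separate them. The sequences are the last 60 coding bases, stop codon included, written 5′ to 3′ in the direction of the gene from the GENCODE M21 transcripts (GRCm38). In the alpha set the capitals mark the last codon before the stop. It is TAT, a tyrosine codon, in Tuba1c, and GAG in Tuba4a, whose product is made without the terminal tyrosine.
Tuba1c: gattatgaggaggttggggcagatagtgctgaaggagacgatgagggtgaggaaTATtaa
Tuba4a: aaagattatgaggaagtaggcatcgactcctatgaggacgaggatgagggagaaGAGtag

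In the beta set the capitals mark the in-frame codons GAA and GAG, which encode glutamate. Of the 20 codons shown, 8 are glutamate codons in Tubb2a and in Tubb2b, 7 in Tubb3 and 9 in Tubb4a and in Tubb5. Tubb3 alone among these 5 ends in a lysine codon (AAG).
Tubb2a: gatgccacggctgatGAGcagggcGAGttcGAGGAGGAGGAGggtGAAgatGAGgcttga
Tubb2b: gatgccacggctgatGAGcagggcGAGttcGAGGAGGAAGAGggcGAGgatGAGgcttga
Tubb3: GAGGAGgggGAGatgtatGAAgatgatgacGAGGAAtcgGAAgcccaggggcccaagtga
Tubb4a: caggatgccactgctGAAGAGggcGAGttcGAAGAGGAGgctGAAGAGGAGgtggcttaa
Tubb5: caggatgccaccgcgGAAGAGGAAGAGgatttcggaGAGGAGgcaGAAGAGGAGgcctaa

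Tubb2a and Tubb2b differ at 3 of these 60 bases. Over the whole coding region Tuba1a was 98.3% identical to Tuba1b and 97.1% identical to Tuba1c, Tuba1b was 97.9% identical to Tuba1c, and Tubb2a was 96.5% identical to Tubb2b. Any other pair of members of the same family was 80.2% to 85.9% identical. In windows of 50 bases along the longest coding transcript, 64.6% of those of Tuba1b, 59.8% of Tuba1c, 52.0% of Tuba1a, 45.6% of Tubb2a and 33.4% of Tubb2b also stood in another tubulin transcript. The shares were 0% in Tuba4a, Tubb3 and Tubb6 and under 0.2% in Tubb4a (0.184%) and Tubb5 (0.0385%). No source used here says how the authors treated reads that match several genes. The split of reads within Tuba1a, Tuba1b and Tuba1c and within Tubb2a and Tubb2b is therefore uncertain. Of the 1803 exon bases of Tuba1a, 473 also lie in exons of Gm49450, a coding gene on the same strand. The same holds for 426 of the 1875 exon bases of Tuba1b. Strand cannot separate such reads, and their part in the levels of Tuba1a and Tuba1b was not tested.

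The comparison asked whether the neural and the general isotypes differ between old and young nerves. No member passed an adjusted p under 0.05 in limma, in either direction, although 34.6% of the 15882 genes tested did (15.9% higher and 18.7% lower in old nerves). All 10 members were tested, and 1 of them, Tuba1c, had an unadjusted p under 0.05. The same gene was the only 1 of the 10 to pass in edgeR's quasi-likelihood test, in DESeq2 and in the authors' deposited table, each time as higher in old nerves, where 16.1% of all genes were higher in edgeR and 16.8% in that table. The median log2 fold change of the members, which is old minus young after adding 1 to each value, was 0.06, against -0.00080 over all genes tested, and the median size of the change was 0.19, against 0.29. The 95% limma interval stayed within a 2-fold change in either direction for all 10 members, as it did for 73.0% of all genes tested.

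**Figure D1:**
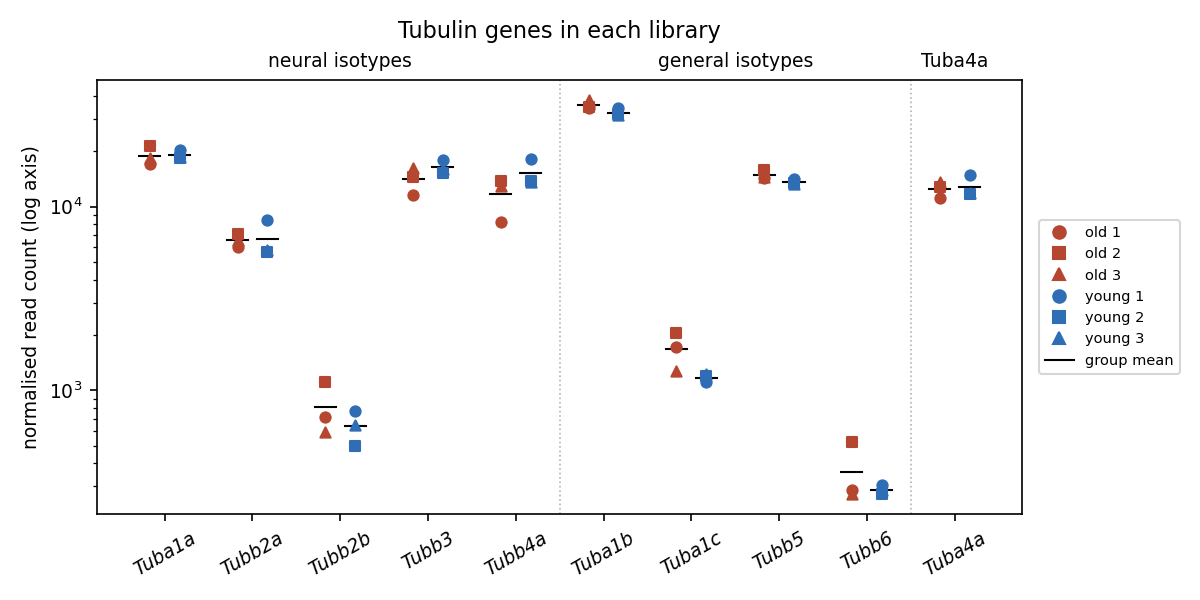
Normalised read count (log axis) of each tubulin gene in the 3 old and 3 young libraries, with the group mean as a bar. The groups overlap in 7 of the 10 genes, and in Tuba1b, Tuba1c and Tubb5 every old library lies above every young one.

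The groups did not overlap in 3 members, Tuba1b, Tuba1c and Tubb5, all of them general isotypes and all with the old libraries above the young. Over all genes tested the groups did not overlap in 51.8%, with the old libraries above in 25.5%, so 3 of 10 is near the background. In no member did all old libraries lie below the young ones, which 26.3% of all genes did. Old 1 was the lowest old library in 7 of the 10 genes and the highest in 0, and young 1 was the highest young library in 9.

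Among the neural isotypes, Tubb3 and Tubb4a had log2 fold changes further below 0 than the others. Tubb3, the class III beta tubulin used as a marker of neurons, lies at chr8:123411564-123422010 (mm10) and had 11564, 14435 and 16134 normalised counts in old 1, 2 and 3, against 17985, 15146 and 16005 in young 1, 2 and 3. Old 1 was below all young libraries, whereas old 3 was above young 2 and young 3. The means were 14044 ± 2310 in old nerves and 16378 ± 1456 in young nerves, with a log2 fold change of -0.23 ± 0.13 (SE, 95% interval -0.55 to 0.08, limma adjusted p = 0.214). Without old 1 the log2 fold change was -0.10.

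Tubb4a, a beta tubulin of neurons and oligodendrocytes whose human gene is mutated in a hypomyelinating leukodystrophy, lies at chr17:57080066-57087782. It had 8214, 13705 and 12978 normalised counts in old 1, 2 and 3, against 18054, 13834 and 13660 in young 1, 2 and 3. Its spread rests on old 1, the lowest library, and young 1, the highest, while the other 4 libraries lay between 12978 and 13834. The means were 11632 ± 2982 in old nerves and 15183 ± 2488 in young nerves (log2 fold change -0.41 ± 0.21, 95% interval -0.90 to 0.08, limma adjusted p = 0.167). The value was -0.17 without old 1 and -0.28 without young 1, and it had an adjusted p of 0.385 without old 1.

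Tuba1a, the alpha tubulin that predominates in developing neurons, lies at chr15:98949847-98953501. It stood at 17006.5, 21389 and 18335 in old 1, 2 and 3 and at 20224, 18468 and 18620 in young 1, 2 and 3. The old libraries lay on both sides of the young ones. The means were 18910 ± 2247 in old nerves and 19104 ± 973 in young nerves, and the log2 fold change was -0.02 ± 0.10, with a 95% interval from 0.83-fold to 1.17-fold. After removal of smooth length and GC trends from each library the value stood at -0.19 (limma adjusted p = 0.176).

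Tubb2a, an abundant beta tubulin of mature brain, lies at chr13:34074280-34078008. It had 6037, 7063 and 6532 normalised counts in old 1, 2 and 3, against 8427, 5667 and 5816 in young 1, 2 and 3, so young 1 was above every other library and the other young libraries below every old one. Its log2 fold change was 0.0013 ± 0.16 (95% interval -0.36 to 0.37), and -0.16 with length and GC trends removed. Tubb2b, its neighbour at chr13:34127008-34130354 and a beta tubulin of migrating and growing neurons, had 718, 1116 and 597 in old 1, 2 and 3, against 768, 499 and 650 in young 1, 2 and 3. Only old 2 was above the young range, and the log2 fold change was 0.31 ± 0.25 (limma adjusted p = 0.362), with 0.06 without old 2 and 0.17 with those trends removed. Summed over the pair, whose reads are hard to separate, there were 7354 ± 738 normalised counts in old nerves and 7276 ± 1669 in young nerves.

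Among the general isotypes, Tuba1c had the largest difference of the 10 members. It lies at chr15:99029891-99038105 and had 1725, 2045 and 1275 normalised counts in old 1, 2 and 3, against 1104, 1189 and 1228 in young 1, 2 and 3. Every old library was above the young ones, old 3 by a small margin. The means were 1682 ± 387 in old nerves and 1174 ± 63.5 in young nerves (1.43-fold, log2 fold change 0.49 ± 0.16, 95% interval 0.11 to 0.88, limma adjusted p = 0.0536). The adjusted p was 0.0441 in edgeR, 0.0139 in DESeq2 and 0.0140 in the authors' deposited table, and in limma 0.0043 without old 3 and 0.107 to 0.134 without any other single library. It was far less abundant than Tuba1b and Tuba1a, with which it shares most of its sequence, and reads of those genes could enter its count.

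Tuba1b, the alpha tubulin made by most cells, lies at chr15:98931431-98934390 and was the most abundant member. It had 34400, 34861 and 38143 normalised counts in old 1, 2 and 3, against 34154, 31698 and 31515 in young 1, 2 and 3. The gap between old 1 and young 1 was small beside the range within each group. The log2 fold change was 0.14 ± 0.09 (95% interval -0.07 to 0.35, limma adjusted p = 0.258). With length and GC trends removed it was 0.02. Summed over Tuba1a, Tuba1b and Tuba1c there were 53132, 58295 and 57753 normalised counts in old 1, 2 and 3, against 55482, 51356 and 51362 in young 1, 2 and 3, and the groups overlapped.

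Tubb5, the class I beta tubulin of most tissues, lies at chr17:35833920-35838301. It had 14283, 15720 and 14428 normalised counts in old 1, 2 and 3, against 14131, 13430.5 and 13187 in young 1, 2 and 3. The means were 14811 ± 791 in old nerves and 13583 ± 490 in young nerves (log2 fold change 0.12 ± 0.07, 95% interval -0.05 to 0.30, limma adjusted p = 0.222), and the value was 0.07 with length and GC trends removed. Tubb6, a beta tubulin found mostly outside the brain, was the least abundant member and lies on chromosome 18. It had 285, 526 and 273 in old 1, 2 and 3, against 306, 272 and 287 in young 1, 2 and 3, so its difference (log2 fold change 0.26 ± 0.25, limma adjusted p = 0.451) came from old 2. Without old 2 its value was -0.05.

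Tuba4a, an alpha tubulin of brain, muscle and platelets, lies at chr1:75214972-75219294. It had 11117, 12788 and 13633.5 normalised counts in old 1, 2 and 3, against 14865, 11720 and 11815 in young 1, 2 and 3, and the groups overlapped (log2 fold change -0.03 ± 0.12, 95% interval -0.31 to 0.26). Of the 3701 exon bases annotated for Tuba4a, 1379 also lie in exons of Stk16 on the opposite strand, and whether the library kit marked strand is not given, so reads of both genes can mix there. The summed level of 5 platelet markers was 664 to 693 normalised counts in old nerves and 682 to 840 in young nerves, and their part in the Tuba4a level was not tested.

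**Figure D2:**
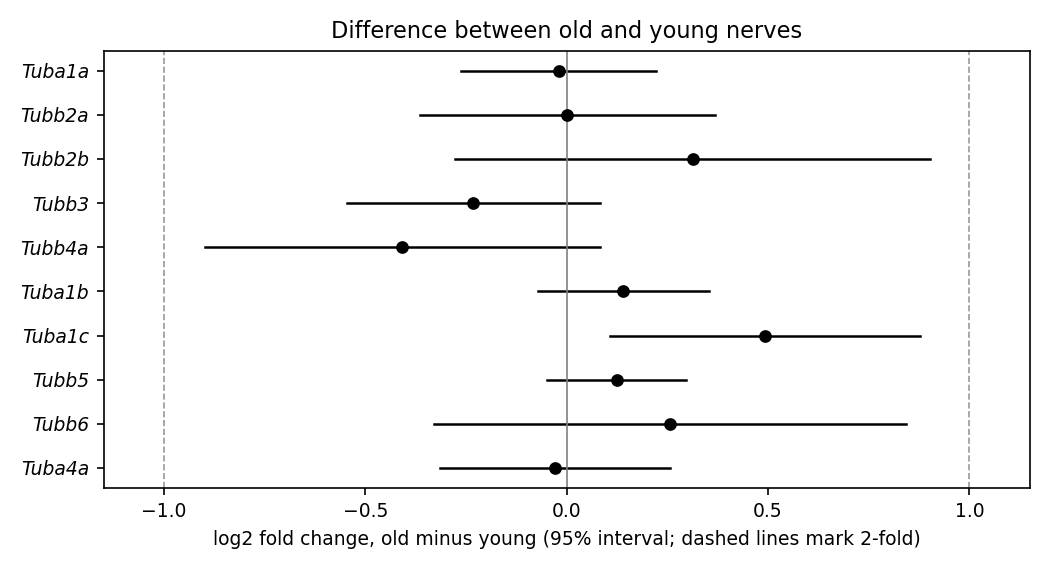
Log2 fold change of each tubulin gene, old minus young, with its 95% limma interval. All 10 intervals lie inside the dashed lines at a 2-fold change, and that of Tuba1c alone excludes 0.

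The spread between animals was wider in old nerves for 8 of the 10 members. The median coefficient of variation of the members was 14.2% in old nerves and 7.33% in young nerves, and over all genes tested it was 11.6% in old and 7.22% in young nerves. Tubb6 (39.5% in old and 5.78% in young nerves) and Tuba1c (23.0% in old and 5.41% in young) had the greatest contrast of this kind, and Tubb2a ran the other way (7.83% in old and 23.4% in young).

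Levels of different genes were compared as normalised reads per kb of the longest coding transcript. Tuba1b was highest, with 20540 ± 1171 reads per kb in old nerves and 18620.5 ± 845 in young nerves, followed by Tuba1a (10488 ± 1246 in old, 10596 ± 540 in young), Tubb3 (7518 ± 1237 in old, 8768 ± 779 in young) and Tubb4a (5221 ± 1339 in old, 6814 ± 1117 in young). Tubb5 (5591 ± 299 in old, 5127 ± 185 in young), Tuba4a (4406 ± 451 in old, 4507 ± 630 in young) and Tubb2a (4065 ± 318 in old, 4122 ± 964 in young) came next. Tuba1c (848 ± 195 in old, 592 ± 32.0 in young), Tubb2b (371 ± 124 in old, 293 ± 61.7 in young) and Tubb6 (206 ± 81.1 in old, 164 ± 9.48 in young) lay well below these. Neighbours in this order whose ranges over the 6 libraries did not overlap were Tuba1b and Tuba1a, Tubb2a and Tuba1c, and Tuba1c and Tubb2b. The other 6 neighbouring pairs overlapped in range, although Tubb3 was above Tubb4a in 6 of 6 libraries and Tubb4a above Tubb5 in 5.

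Within the alpha members, Tuba1b made up 56.7 ± 2.75% of the summed reads per kb in old nerves and 54.3 ± 0.679% in young nerves, and Tuba1a 28.9 ± 2.49% in old and 30.9 ± 0.236% in young nerves. The groups overlapped in the share of each alpha member. Within the beta members, Tubb4a fell short in every old library. Its share was 18.9%, 24.6% and 23.9% in old 1, 2 and 3, against 28.1%, 26.7% and 25.8% in young 1, 2 and 3. Tubb5 took 27.6%, 23.7% and 22.3% in old 1, 2 and 3, against 18.5%, 21.8% and 21.0% in young 1, 2 and 3, every old library above every young one. Tubb3 took the largest share of the beta members and overlapped between groups (32.7 ± 2.40% in old and 34.8 ± 1.34% in young nerves). Without old 1 the old minus young difference in share was -2.63 percentage points for Tubb4a and 2.62 for Tubb5, against -4.41 and 4.15 with all libraries. These shares are descriptions, and no test was run on them.

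**Figure D3:**
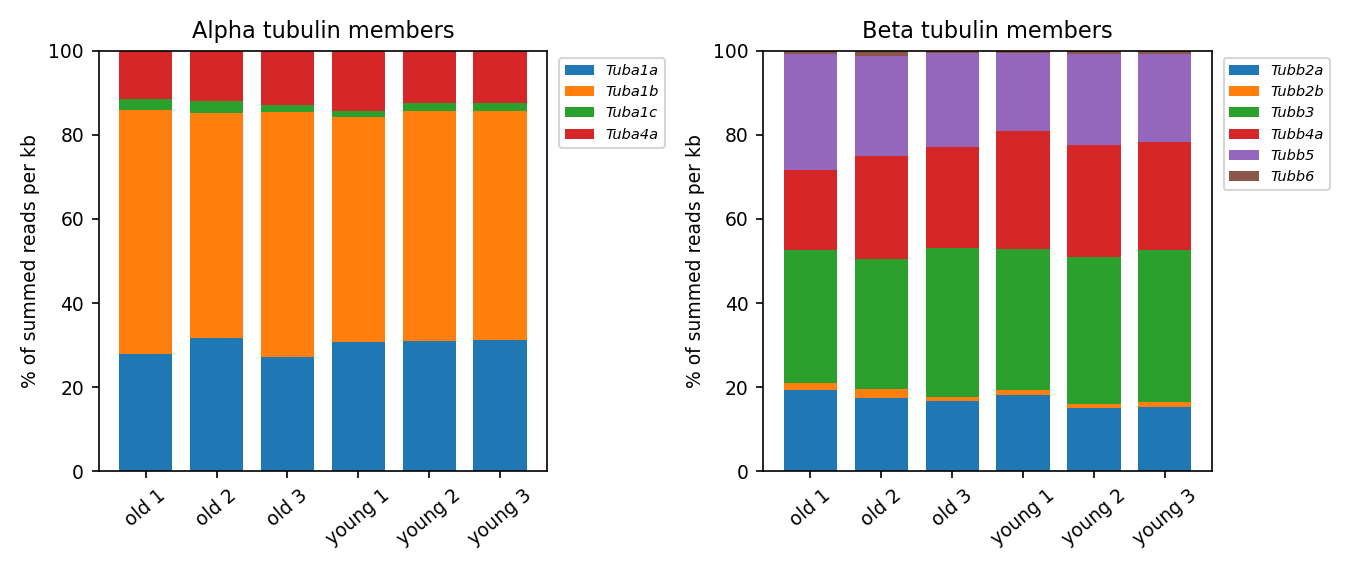
Share of each gene in the summed normalised reads per kb of the alpha members (left) and the beta members (right), in the 3 old and 3 young libraries. Tuba1b takes the largest share of the alpha members in every library, and the Tubb4a share is lower and the Tubb5 share higher in each old library than in each young one.

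Set against each other as sums, the neural isotypes were lower relative to the general isotypes in old nerves. The log2 ratio of the summed reads per kb was -0.16, 0.17 and 0.04 in old 1, 2 and 3, against 0.43, 0.24 and 0.28 in young 1, 2 and 3, a difference of -0.30 with no overlap between the groups. Old 2 and young 2 lay closest to each other. Leaving out old 1 gave a difference of -0.21. The split of reads between Tuba1a on 1 side and Tuba1b and Tuba1c on the other is uncertain. With these genes left out, the log2 ratio was 1.56 ± 0.21 in old nerves and 1.91 ± 0.15 in young nerves. That difference was -0.35, also without overlap. The alpha and beta members differed too, with a log2 ratio of alpha over beta of 0.67 ± 0.12 in old nerves and 0.45 ± 0.09 in young nerves, and again no overlap. No p is given for these ratios, because the members were chosen with results of these data known.

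Some markers of neurons were lower in old nerves too. Of 12 neuron markers, all above 0 in every library, 5 passed as lower in old nerves and none as higher, against a background of 18.7% lower. Their summed level was 204976 to 313731 normalised counts in old nerves and 360896 to 389222 in young nerves. Slc17a7, the vesicular glutamate transporter of these neurons, had a log2 fold change of -1.07 ± 0.24 (limma adjusted p = 0.0157), and Nefm, a neurofilament subunit, one of -1.05 ± 0.21 (0.0106). The other 7 did not pass, among them the abundant Nefh (-0.40 ± 0.16), Snap25 (-0.35 ± 0.18) and Elavl4 (-0.31 ± 0.14), and Gata3 (0.26 ± 0.20) and Prph (0.32 ± 0.16), whose values were above 0. The number that passed was 9 without old 3, 3 without young 2 or without young 3, 4 without any other single library, and 0 with young 1 and old 2 left out together. The part of this in the tubulin ratio was not tested. In bulk tissue, fewer neurons and less RNA per neuron cannot be told apart.

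The neuron markers and the neural isotypes were also set side by side as means. The mean log2 level of the 12 markers was 12.21, 12.61 and 12.72 in old 1, 2 and 3, against 13.38, 12.99 and 13.03 in young 1, 2 and 3, without overlap. The mean log2 level of the 5 neural isotypes was 12.52, 12.97 and 12.74 in old 1, 2 and 3, against 13.04, 12.65 and 12.75 in young 1, 2 and 3, with overlap. Both had old 1 as the lowest and young 1 as the highest library. Relative to the marker mean, Tubb3 was at 1.28, 1.21 and 1.26 log2 units in old 1, 2 and 3, against 0.76, 0.90 and 0.93 in young 1, 2 and 3, every old library above every young one. Tuba1a was at 1.69 ± 0.21 in old nerves and 1.09 ± 0.14 in young nerves, also without overlap. Tubb4a (0.96 ± 0.17 in old, 0.74 ± 0.04 in young) and Tubb2a (0.16 ± 0.20 in old, -0.46 ± 0.11 in young) were likewise higher in every old library. The marker mean rests in part on Syt1, which had 6020 normalised counts in young 1 and 154 to 1015 in the other libraries. Without it, an alternative chosen after seeing the data, the marker mean was 12.89 ± 0.30 in old nerves and 13.42 ± 0.03 in young nerves. Relative to that mean Tubb3 (0.87 ± 0.11 in old, 0.57 ± 0.11 in young) and Tuba1a (1.31 ± 0.32 in old, 0.80 ± 0.05 in young) were again higher in every old library, whereas Tubb4a (0.58 ± 0.28 in old, 0.46 ± 0.20 in young) and Tubb2a (-0.22 ± 0.28 in old, -0.75 ± 0.30 in young) overlapped. These are descriptions with no test. The old minus young difference of the marker mean itself was -0.62 log2 units, and -0.53 without Syt1. A gene with an unchanged level is therefore higher relative to it in old nerves. Tuba1a (log2 fold change -0.02) and Tubb2a (0.0013) were nearly unchanged, so their rise here restates the fall of the markers. Tubb3 (-0.23) and Tubb4a (-0.41) had smaller falls than the marker mean. No level per neuron can be read from these values. Single markers such as Nefh, Snap25 and Elavl4 had log2 fold changes close to that of Tubb4a (-0.41).

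**Figure D4:**
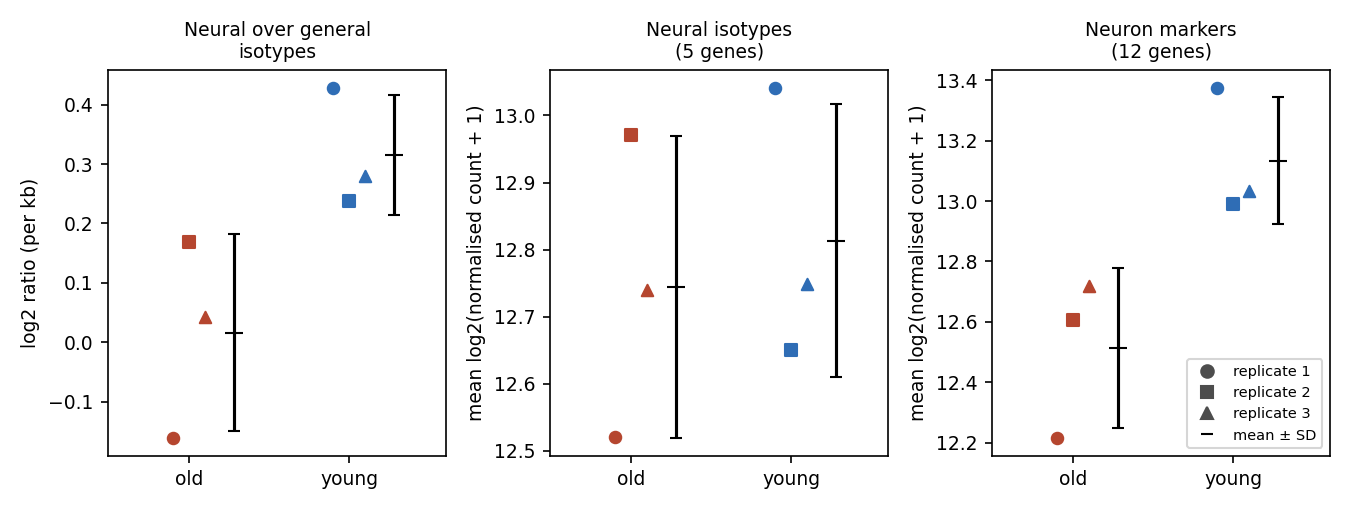
Left, log2 ratio of summed neural over summed general isotypes per kb; middle and right, mean log2(normalised count + 1) of the 5 neural isotypes and of 12 neuron markers, each in 3 old and 3 young libraries with mean ± SD. The ratio and the neuron markers are lower in every old library than in every young one, and the neural isotypes overlap.

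Markers of other cells that could make tubulin were counted in the same way, against 15.9% of all genes higher and 18.7% lower. All 10 macrophage markers passed as higher in old nerves, with a summed level of 15179 to 25323 normalised counts in old nerves and 5562 to 7586 in young nerves. Of 10 Schwann cell markers 1 passed as higher and 4 as lower (2 lower with length and GC trends removed), and their summed level overlapped, at 409510 to 462782 in old and 414275 to 483578 in young nerves. Of 6 fibroblast markers 3 passed as lower, with Col1a2, a collagen chain, at -1.65 ± 0.22. With length and GC trends removed 1 was lower, and with 1 library left out 1 to 3 were. The fit without old 3 gave 2 higher and 2 lower. The summed level of the fibroblast markers was 33419 to 66147 in old nerves and 53374 to 61248 in young nerves. Of 6 osteoblast markers 3 passed as lower, at 2032 to 3240 in old and 3584 to 4807 in young nerves. Of 5 endothelial markers 1 passed as lower, at 5887 to 7448 in old and 7351 to 8359 in young nerves. Of 6 astrocyte markers 3 passed as higher, at 92793 to 106378 in old and 68196 to 74058 in young nerves. Of 8 oligodendrocyte markers 1 passed as higher, which is near the background. With length and GC trends removed 0 were higher and 1 lower. Their summed level overlapped, at 6349 to 9875 in old and 6670 to 9309 in young nerves. Their mean log2 level was 8.28, 9.11 and 9.09 in old 1, 2 and 3, against 9.15, 8.55 and 8.43 in young 1, 2 and 3. Old 1 was the lowest and young 1 the highest library, as in Tubb4a. Markers of cochlear epithelium were present too. Of 5 supporting epithelium markers 1 passed as higher, at 37332 to 50425.5 in old and 32412.5 to 41872 in young nerves. Of 6 hair cell markers 0 passed, at 9430 to 12443 in old and 9502 to 12614 in young nerves. None of the neuron, Schwann cell or macrophage markers was at 0 in any library. The part of all these cells in the levels of the general isotypes and of Tubb4a was not tested.

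Among the tubulin genes outside the 10 members, 7 of 10 listed were in the table and tested, of which 2 fell in old nerves, against 18.7% of all genes. Both were gamma tubulins, which nucleate new microtubules. Tubg2 had 855, 1010 and 1433 normalised counts in old 1, 2 and 3, against 1646, 1976 and 1840 in young 1, 2 and 3 (log2 fold change -0.76 ± 0.18, limma adjusted p = 0.0195). Tubg1 had 826, 920 and 1079 in old 1, 2 and 3, against 1211, 1260 and 1306 in young 1, 2 and 3 (-0.43 ± 0.11, limma adjusted p = 0.0222). In both genes every old library lay below every young one, which 26.3% of all genes did. Without old 3 both passed, without old 1 or young 1 only 1 of them did, and without old 2, young 2 or young 3 neither did, nor with young 1 and old 2 left out together. Tubd1 (-0.26 ± 0.15) and Tube1 (-0.32 ± 0.17), the delta and epsilon tubulins of centrioles, did not pass. In Tubd1, too, every old library lay below every young one. Tubb4b, a widely made beta tubulin named here after its values were seen, had 7305 ± 665 reads per kb in old nerves and 7518 ± 581 in young nerves, close to Tubb3 (log2 fold change -0.04 ± 0.10).

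Genes that fold tubulin were more often higher than lower in old nerves. Of 22 tested, 11 passed as higher (15.9% of all genes) and 1 as lower (18.7%), with a median log2 fold change of 0.22. Their summed level was 87096 to 88095 normalised counts in old nerves and 75512 to 77927 in young nerves. Pfdn5, a prefoldin subunit that hands new chains to the CCT chaperonin, had 3192, 2792 and 3103 in old 1, 2 and 3, against 1683, 1839 and 2000 in young 1, 2 and 3 (0.72 ± 0.09, limma adjusted p = 0.00477). Pfdn1 (0.52 ± 0.06) and Tbca, which holds beta tubulin before the dimer forms (0.48 ± 0.07), rose too, whereas Tbcel, a cofactor E-like protein that takes tubulin apart, fell by 0.32 on the log2 scale. The change differed by transcript length over all genes: the median log2 fold change was 0.31 for transcripts up to 1339 bases and -0.28 for those of 6739 bases or more. With length and GC trends removed 2 of 21 were higher and 2 lower (11.7% and 13.3% over all genes), and the median was -0.02. Pfdn1 was then at 0.12 (limma adjusted p = 0.178) and Tbca at -0.19 (limma adjusted p = 0.209), whereas Pfdn5 and Tbcel still passed. Vbp1, named after its values were seen, changed direction. It passed as higher in the main fit (0.33, limma adjusted p = 0.0135) and as lower with the trends removed (-0.23, limma adjusted p = 0.0366). The number higher was 7 without old 2, 5 without young 1, 3 without young 2, 4 without young 3, and again 3 with young 1 and old 2 left out together.

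Enzymes that set the acetyl and tyrosine marks on alpha tubulin changed in both directions. Of 7 tested, 2 passed as higher (15.9% of all genes) and 3 as lower (18.7%). Atat1, the acetyltransferase of alpha tubulin, had 741, 839 and 831 normalised counts in old 1, 2 and 3, against 1146, 1063 and 1164 in young 1, 2 and 3 (log2 fold change -0.49 ± 0.08, limma adjusted p = 0.00787). All 3 old libraries were below the young ones, and the call held whichever single library was dropped. Sirt2, a deacetylase that acts on tubulin, was at 10427 ± 350 in old nerves and 8401 ± 388 in young nerves (0.31 ± 0.07, limma adjusted p = 0.0136). Ttl, the ligase that puts the terminal tyrosine back, had 1963, 2178 and 2382 in old 1, 2 and 3, against 2935, 2862 and 2895 in young 1, 2 and 3 (-0.42 ± 0.08, limma adjusted p = 0.0102).

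Svbp, the partner that the tyrosine-removing vasohibins need, was at 573 ± 65.7 in old nerves and 360 ± 17.1 in young nerves (0.66 ± 0.11, limma adjusted p = 0.00779). After removal of the length and GC trends it stood at 0.25 (limma adjusted p = 0.112). Vash1, such a vasohibin, was named after its values were seen and ran the other way (-0.79 ± 0.18, limma adjusted p = 0.0157). With those trends removed Atat1, Sirt2, Ttl and Vash1 still passed. The number higher was 1 without young 1, the number lower was 2 without young 2, and none of the 7 passed without both young 1 and old 2.

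Among 17 enzymes of glutamate and glycine chains, 3 passed as higher, near the 15.9% of all genes, and 6 as lower (18.7%). Ttll11, a ligase that lengthens glutamate chains, had 251, 292 and 316 normalised counts in old 1, 2 and 3, against 472, 473 and 515 in young 1, 2 and 3 (log2 fold change -0.77 ± 0.12, limma adjusted p = 0.00657). Ttll5, a ligase that starts or extends such chains (-0.44 ± 0.08), fell as well. The carboxypeptidases of this list, which trim glutamates, went both ways: Agtpbp1 (-0.52 ± 0.11) and Agbl5 (-0.42 ± 0.10) fell, Agbl2 (2.06-fold by the group means, limma adjusted p = 0.0191) and Agbl3 (0.42 ± 0.12, limma adjusted p = 0.0292) rose, and Agbl4 (-0.15 ± 0.21) did not pass. The last 3 were named after their values were seen. Agtpbp1, whose loss causes degeneration of Purkinje cells in mice, was at 3254 ± 377 in old nerves and 4655 ± 429 in young nerves. With length and GC trends removed 3 were higher and 2 lower, and Agtpbp1 (-0.31, adjusted p = 0.0787) and Agbl5 (-0.28, adjusted p = 0.0672) did not pass, whereas Agbl2 (1.04, adjusted p = 0.0252) and Agbl3 (0.42, adjusted p = 0.0368) did. The number higher was 0 without old 1, young 2 or young 3, 1 without old 2 or young 1 and 2 without old 3. The number lower was 3 without young 2 or young 3. With young 1 and old 2 left out together 1 was lower and 0 higher.

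Of 8 severing genes, Katnal1, a katanin-like subunit that cuts microtubules, fell to 3433 ± 624 in old nerves, against 5375 ± 294 in young nerves (log2 fold change -0.66 ± 0.13, limma adjusted p = 0.0109). Spast (spastin, -0.21 ± 0.09) and Fign (-0.31 ± 0.13) did not pass. Katnal1 was the only 1 of the 8 to pass, against 18.7% of all genes lower. The number lower was 3 without old 3, 2 without young 1 and 0 with young 1 and old 2 left out together. Of 16 nucleation genes 4 passed as higher (15.9% of all genes) and 1 as lower (18.7%). Tubgcp6 of the gamma tubulin ring complex fell to 1638 ± 194 in old nerves, against 2702 ± 147 in young nerves (-0.73 ± 0.10, limma adjusted p = 0.00509). Haus7 of the augmin complex (0.43 ± 0.08), Mzt2 (0.34 ± 0.09) and Tubgcp3 (0.22 ± 0.06) rose. With length and GC trends removed Haus7 (0.12, adjusted p = 0.284) and Mzt2 (-0.0035, adjusted p = 0.982) did not pass, 1 was higher and 1 lower, and without both young 1 and old 2 these were 0 and 1. The number higher was 2 without old 1 and 1 without old 2, young 1, young 2 or young 3.

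Among the 4 stathmins, which bind free tubulin dimers, Stmn4 had 3682, 3549 and 3074 normalised counts in old 1, 2 and 3, against 2200, 2181 and 2039 in young 1, 2 and 3. It rose in old nerves (log2 fold change 0.68 ± 0.08, limma adjusted p = 0.00486), and passed without both young 1 and old 2. Stmn1 fell by 0.22 on the log2 scale (limma adjusted p = 0.0398) and lost its call whichever single library was dropped. With length and GC trends removed Stmn1 was at -0.63 (adjusted p = 0.00845) and Stmn4 at 0.42 (adjusted p = 0.0165). Stmn2 (-0.02 ± 0.11) and Stmn3 (0.03 ± 0.10), both neuronal, did not pass.

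**Figure D5:**
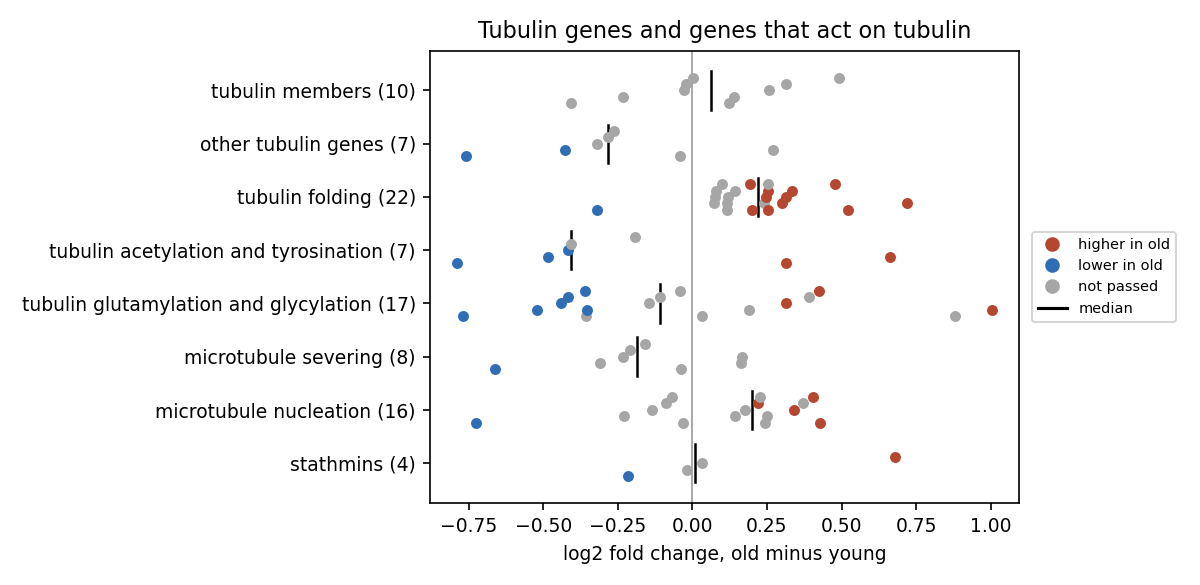
Log2 fold change, old minus young, of each tested gene of the tubulin members and of 7 lists of related genes, coloured by the limma call, with the list median as a bar. None of the 10 members is called, 11 of 22 folding genes are higher in old nerves, and the modifying enzymes fall on both sides of 0.

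The 5 genes whose log2 levels were most like those of Tubb3 over the 6 libraries, among 7940 tested genes at or above the median level, were B3galt5, Pgam1, Vsnl1, Ckmt1 and Prex1 (Pearson 0.992 to 0.985, a description with no p). Vsnl1, a neuronal calcium sensor, had 7950, 10386 and 12152 normalised counts in old 1, 2 and 3, against 14510, 11641.5 and 11561 in young 1, 2 and 3. Like Tubb3, these genes were lowest in old 1 and highest in young 1. For Tuba1c they were Gng11, Efemp2, Cd151, Efemp1 and Ptgr2 (0.997 to 0.991), with old 2 as the highest library of each. Efemp1, an extracellular matrix protein, had 12158, 14270.5 and 9987 in old 1, 2 and 3, against 8816, 9057 and 9027 in young 1, 2 and 3.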

How the data were processed

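Per the labels' protocols, total RNA of microdissected auditory nerve was purified with a miRNeasy kit, degraded or contaminated samples were excluded, and Illumina's TruSeq RNA kit was used for library preparation. The submitters' processing notes name mm10, TopHat2, Partek and DESeq2, and their versions and order, the annotation and the treatment of multiply matching reads are not stated. The deposited table holds a signal per gene and library, made by the authors by dividing read counts by 1 size factor per library. Dividing by the value of 1 read returned a whole number (to within 0.1) for 99.93% to 99.97% of values above 0. The authors' deposited p-values, FDR and signed fold change score (old over young) are their own, per the file headers. Start positions are as deposited and ends are the deposited stop less 1.

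Genes kept by edgeR's filterByExpr on the recovered reads (minimum count 10, minimum total 15) were tested with limma (3.58.1, trended empirical Bayes) on log2(value + 1), as a two-sided test whose p-values were Benjamini-Hochberg adjusted over 15882 genes and a threshold of 0.05. The added 1 understates changes of low genes. No pair of replicates matched like a duplicated library: chi-square over its degrees of freedom was 18.5 to 63.6. Transcript lengths, GC content and sequences came from GENCODE M21 (GRCm38), by symbol, using the longest coding transcript. Trends were removed per library with mgcv (1.9.3). Alternatives were edgeR (4.0.16), DESeq2 (1.42.0), the authors' own FDR, other scalings, filters and pseudocounts, the replicate number as a block, and libraries left out. The steps were tested on simulated data. Named genes are the 10 members, up to 4 genes of each related list with the smallest p, and the 5 genes most like Tubb3 and Tuba1c. Tubb4b, Vbp1, Vash1, Agbl2, Agbl3, Agbl4 and neuron markers beyond the first 4 were named after their values were seen. The members and lists were chosen with earlier results of these data known. Some items are not reported here.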

Additional observations from a re-analysis of the deposited data

How the results depend on the processing

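Of the 10 members, 9 passed the threshold in none of the 19 alternatives. Tuba1c passed as higher in 6, namely upper-quartile scaling (log2 fold change 0.57), total-count scaling (0.57), edgeR, DESeq2, the authors' deposited FDR (1 member higher in each of these 5) and the fit without old 3. With 1 library left out, 0 to 1 members passed as higher and 0 as lower. Among the other members, sign changes occurred in Tuba1a (4 alternatives), Tuba4a (5), Tubb2a (7) and Tubb6 (2), none of which passed in any alternative. Upper-quartile scaling gave 59.5% of calls over all genes as higher and total-count scaling 58.5%, against 45.9%, and shifted the median by 0.08 and 0.07. Over all genes 5493 passed, 2589 to 6117 with 1 library left out, 2711 with the replicate block and 1776 with young 1 and old 2 both left out. The labels name no pairing of the libraries. Same-numbered deviations from the group means correlated at -0.29, -0.41 and -0.05, and no library correlated best with its own number. These values cannot tell whether same-numbered libraries were handled together. With the replicate block 0 members passed. The difference in the neural over general log2 ratio (-0.30) was -0.31 without division by length, -0.28 with Tuba4a among the neural isotypes and -0.37 to -0.21 with 1 library left out. No change in an isotype share moved by more than the larger of its 2 group SDs, though some moved by over 1.5 times. The causes of these differences were not tested. The lowest count of any member was 261 reads, in Tubb6, and the part of depth in its spread was not tested.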
